A study of Rattus norvegicus with 6 samples.

Results

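The vacuolar proton pump (V-ATPase) and the carbonic anhydrases were examined in rat epididymal cells split into a basal and a non-basal fraction. Genes were taken by symbol: every named gene beginning with Atp6v or Atp6ap, and every Car gene followed by a number. This gave 38 of the 18166 named genes, 23 of them pump genes and 15 carbonic anhydrase genes. All 38 were measured and none was removed by a filter on low values. Atp6v0a2, Atp6v1c2 and Car10 were not analysed here.

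Both fractions came from epididymides of Sprague-Dawley rats aged 48 days. The labels tell them apart only by the side of a magnetic separation, basal or non-basal. There were 3 arrays of each fraction (RaGene 2.0 ST, from Affymetrix). The labels name 3 rats but do not tie an array to a rat, name the surface molecule used or say which stretch of the duct was taken, so p-values rest on the spread among samples whose origin is unknown and may be technical. Values are log2 RMA units, in which 1 unit is a doubling, and a difference is always basal minus non-basal. Levels of different genes on this scale are not comparable with each other.

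The V-ATPase moves protons across membranes with the energy of ATP. Its V1 sector splits ATP in the cytosol, and its V0 sector carries protons through the membrane. Most subunits are found in all cells, where the pump acidifies lysosomes and endosomes. Narrow and clear cells of the epididymal epithelium carry the pump on the luminal surface, with subunit isoforms of restricted expression, and acidify the fluid in which sperm are stored. Carbonic anhydrases turn carbon dioxide and water into bicarbonate and protons and so supply the pump. Basal cells lie beneath the luminal cells.

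The separation was checked on markers. Of 15 basal epithelial markers 13 were higher and 1 was lower in the basal fraction. All 10 fibroblast markers, all 8 smooth muscle markers, 7 of 8 endothelial and 7 of 10 lymphocyte markers were lower, as were 3 of 13 principal cell and 3 of 12 macrophage markers. Among all genes 7.71% were higher and 7.14% lower. Of 10 narrow and clear cell markers outside the 38 genes, 0 passed in limma, and 1 had an unadjusted p below 0.05. This was Kit, a receptor tyrosine kinase, at a difference of -0.34 (limma adjusted p = 0.0511), which passed with a filter at a fraction mean of 5 (0.0448) or 7 (0.0368) and with array weights (0.0297). Rhcg, an ammonia channel of these cells, was at -0.78 and did not pass with all arrays (limma adjusted p = 0.190), where the fractions overlapped. It passed without basal replicate 3 (limma adjusted p = 0.0113), without that array and non-basal replicate 1 (0.0130) and with array weights (0.0293). In that order, 19.5%, 25.4% and 28.6% of all genes were called in these fits, against 14.9% with all arrays. With 1 array left out the limma adjusted p of Rhcg ranged up to 0.424. The median difference of the 10 markers was -0.0458, with 3 positive and 7 negative. The fractions are mixtures, so fewer cells of a type and less RNA per cell cannot be told apart. Array medians lay between 6.63 and 6.70, and the number of arrays limits the precision.

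In the fit to all 6 arrays none of the 23 pump genes passed the test, and 4 carbonic anhydrase genes did. Tcirg1, a form of pump subunit a that the symbol rule does not reach, passed as higher at 0.95 (limma adjusted p = 0.0113). Under some alternatives Atp6v0a1, Atp6v0d1, Atp6v0e2 and Atp6ap2 passed, as given with each gene. The share of all genes called moved as well, from 14.9% with all 6 arrays. It was 6.56%, 5.98% and 19.5% without basal replicate 1, 2 or 3. Without non-basal replicate 1, 2 or 3 it was 16.4%, 6.94% and 5.88%. Filters at a fraction mean of 5 and 7 gave 17.7% and 27.2%, quantile normalization 16.7%, centring 18.4% and array weights 28.6%. With all 6 arrays Car12 and Car3 were higher in the basal fraction, by 1.82-fold and 1.77-fold, and Car14 and Car11 were lower, by 1.92-fold and 2.32-fold. With limma and Benjamini-Hochberg adjustment over all 18166 genes, 2 of the 38 genes were thus called higher, where 7.71% of all genes were, and 2 were called lower, where 7.14% were. The 4 calls are 10.5% of the 38 genes, against 14.9% of all genes in either direction. The fractions did not overlap in 12 of the 38 genes (4 higher, 8 lower), and in 32.9% of all genes. An unadjusted p below 0.05 was seen in 9 of the 38 genes and in 30.0% of all genes. The median size of the difference, sign ignored, was 0.172 for the 38 genes and 0.166 for all genes. It was 0.0887 for the pump genes and 0.242 for the carbonic anhydrases.

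**Figure D1:**
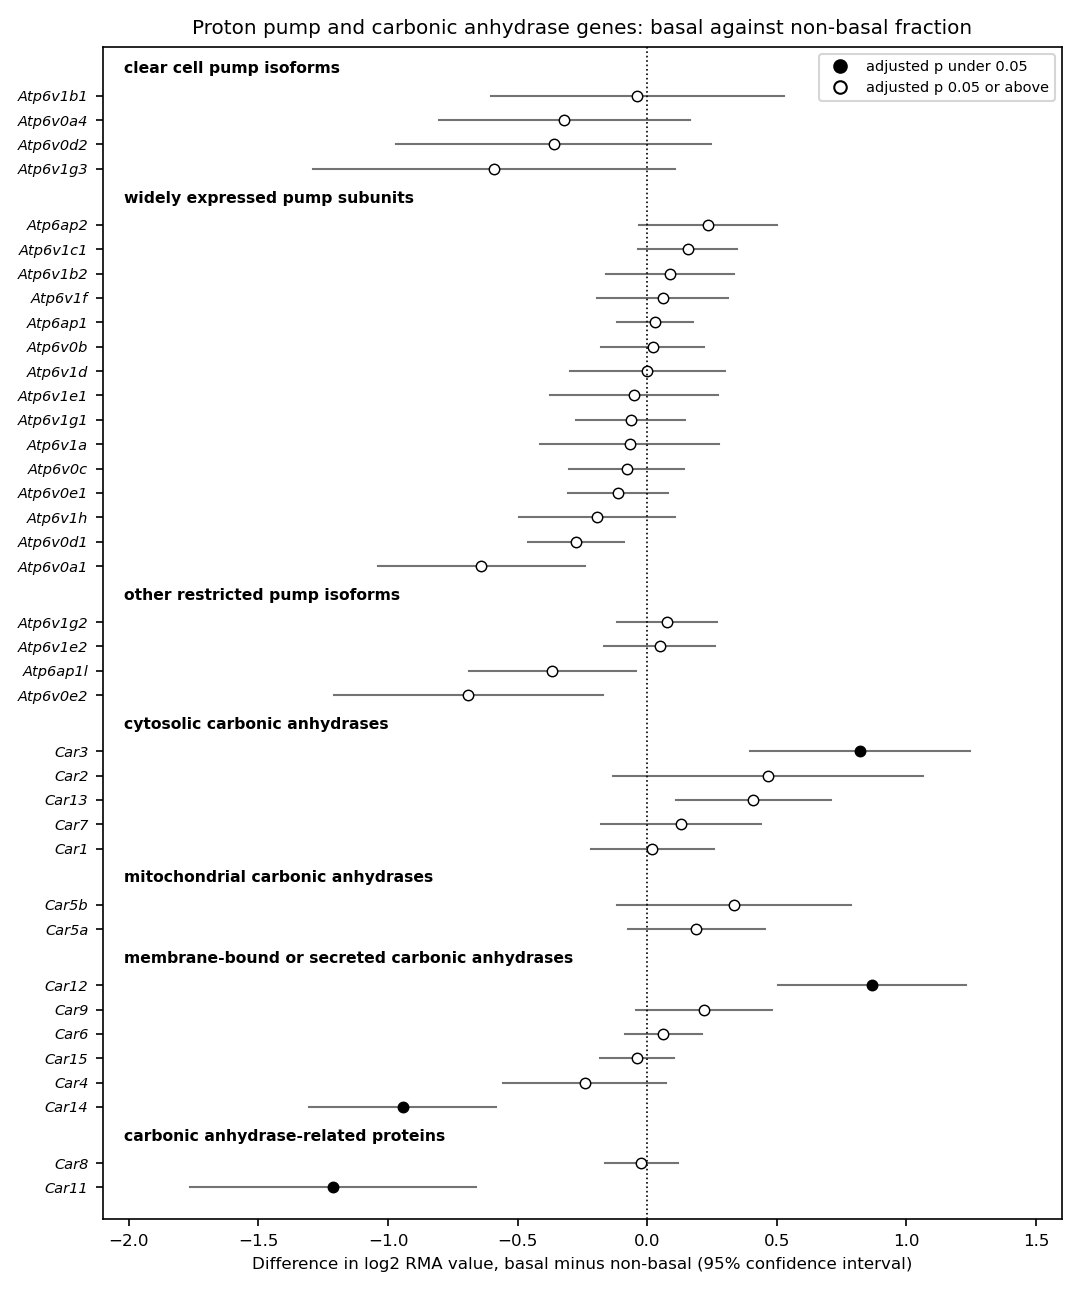
Difference in log2 RMA value, basal minus non-basal, of all 38 genes with the 95% confidence interval of limma, grouped by role, where filled points passed an adjusted p of 0.05. Filled points are Car3 at 0.82, Car12 at 0.87, Car14 at -0.94 and Car11 at -1.21, and every pump gene is an open point.

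Among the pump isoforms typical of clear cells, 4 were measured. In limma 0 of them passed, and 0 had an unadjusted p below 0.05. The median difference was -0.34, against -0.05 for the 15 widely expressed subunits and 0.00343 for all genes. It was -0.14 without non-basal replicate 1 and -0.18 without basal replicate 2. Atp6v1b1, the nucleotide-binding B subunit of clear cells, stood at 9.63, 9.49 and 9.97 in the basal and at 10.20, 9.42 and 9.58 in the non-basal arrays, in the order of replicates 1 to 3 as for all genes here. The fractions overlapped, the difference was -0.04 (95% confidence interval -0.60 to 0.53), and its sign turned after centring of the arrays, where it was 0.06. It also turned without basal replicate 2 (0.0668) or non-basal replicate 1 (0.193). Atp6v0a4, the clear cell form of the proton-conducting subunit a, stood at 9.71, 9.33 and 9.93 in the basal and at 10.28, 9.80 and 9.85 in the non-basal arrays. Its difference was -0.32 (-0.80 to 0.16), and -0.157 without basal replicate 2 or -0.166 without non-basal replicate 1. For Atp6v0d2, a form of the subunit that couples the membrane ring to the rotor, the values were 9.80, 9.31 and 9.82 against 10.48, 9.65 and 9.89, a difference of -0.36 (-0.97 to 0.25). It was -0.124 without non-basal replicate 1 and -0.196 without basal replicate 2. Both genes overlapped between the fractions.

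Atp6v1g3, the clear cell form of the stalk subunit G, was the 1 gene of the 4 whose fractions did not overlap. It stood at 8.15, 8.26 and 8.14 in the basal and at 9.45, 8.53 and 8.34 in the non-basal arrays. The difference of -0.59 ± 0.286 (SE, -1.29 to 0.11) did not pass (limma adjusted p = 0.227). Without non-basal replicate 1, which held the highest value, it was -0.25. The intervals of Atp6v0a4, Atp6v0d2, Atp6v1b1 and Atp6v1g3 reach down to 0.572, 0.511, 0.658 and 0.409 of the non-basal level, so equal expression is not shown.

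The 250 bases upstream of the RefSeq transcript start (GRCr8) are shown for 3 of these isoforms and for the widely expressed forms of subunits a and d, because the same subunits are compared between fractions below. Capitals mark a match, on either strand, to any of 4 motifs. The forkhead core was searched as GTAAACA. The E-box palindrome known from many promoters was searched as CACGTG. The GC box, common in promoters of widely expressed genes, was searched as GGGCGG. The TATA box, found in many regulated promoters, was searched as TATAAA. In the windows printed here no match of one motif overlapped that of another. The windows lie at chr4:117781194-117781443 (plus strand), chr4:67809093-67809342 (minus), chr13:52362082-52362331 (plus), chr10:86435891-86436140 (plus) and chr19:50357249-50357498 (minus), in the order printed.
Atp6v1b1: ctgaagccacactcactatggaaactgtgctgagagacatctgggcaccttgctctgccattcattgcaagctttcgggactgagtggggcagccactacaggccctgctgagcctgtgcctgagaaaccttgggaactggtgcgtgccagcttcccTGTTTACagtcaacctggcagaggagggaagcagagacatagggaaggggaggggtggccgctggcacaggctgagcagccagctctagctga
Atp6v0a4: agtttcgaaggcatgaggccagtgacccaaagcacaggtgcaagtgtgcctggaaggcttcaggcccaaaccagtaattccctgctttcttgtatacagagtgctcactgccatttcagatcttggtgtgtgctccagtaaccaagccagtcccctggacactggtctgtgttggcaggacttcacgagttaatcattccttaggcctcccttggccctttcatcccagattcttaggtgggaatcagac
Atp6v1g3: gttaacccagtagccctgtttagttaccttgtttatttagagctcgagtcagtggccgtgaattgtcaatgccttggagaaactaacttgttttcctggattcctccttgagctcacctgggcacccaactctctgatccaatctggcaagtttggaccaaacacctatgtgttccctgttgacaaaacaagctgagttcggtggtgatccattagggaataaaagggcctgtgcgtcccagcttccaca
Atp6v0a1: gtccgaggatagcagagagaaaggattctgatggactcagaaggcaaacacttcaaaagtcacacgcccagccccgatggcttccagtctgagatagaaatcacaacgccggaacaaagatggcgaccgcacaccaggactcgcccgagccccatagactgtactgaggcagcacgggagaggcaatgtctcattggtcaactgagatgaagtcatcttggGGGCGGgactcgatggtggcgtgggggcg
Atp6v0d1: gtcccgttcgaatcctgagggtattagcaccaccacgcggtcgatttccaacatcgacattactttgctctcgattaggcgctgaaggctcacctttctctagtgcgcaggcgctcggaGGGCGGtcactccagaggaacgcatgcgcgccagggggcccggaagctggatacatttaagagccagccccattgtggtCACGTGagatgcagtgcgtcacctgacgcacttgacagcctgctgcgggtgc
The Atp6v1b1 window held the forkhead core 93 bases upstream of the start, written there as TGTTTAC on the printed strand. Among all 33469 windows of the same length 3.21% held it, and among the 27 windows found for the 38 genes it was in Atp6v1b1 and Car5a. None of the 3 clear cell isoforms had a GC box, and their CpG dinucleotides numbered 2 to 4. Of 12 widely expressed subunits with a window 9 had a GC box, which 30.5% of all windows held, and the median number of CpG dinucleotides was 12.5. The E-box palindrome was found in Atp6v0d1, 52 bases upstream of the start, and in 5.59% of all windows. A match describes the letters and is not evidence of binding.

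Of the 15 widely expressed subunits 0 passed in limma, and their differences ranged from -0.64 to 0.23. Their median turned to 0.05 after centring and to 0.07 without non-basal replicate 1. An unadjusted p below 0.05 was seen in 2 of the 15, Atp6v0a1 and Atp6v0d1, both of the membrane sector, and in 30.0% of all genes. Atp6v0a1, the common form of subunit a, stood at 9.78, 9.59 and 10.14 in the basal and at 10.66, 10.31 and 10.47 in the non-basal arrays. Every basal value lay below every non-basal one, and the difference was -0.64 ± 0.164 (SE; limma adjusted p = 0.0516). It passed in 6 of 15 alternatives, at a limma adjusted p of 0.0184 without basal replicate 3, 0.0225 without that array and non-basal replicate 1, 0.0102 with array weights, 0.0475 after quantile normalization, and 0.0445 and 0.0309 with filters at a fraction mean of 5 and 7. Over all 15 the adjusted p ranged up to 0.166. Atp6v0d1 stood at 10.83, 10.90 and 10.90 against 11.27, 11.08 and 11.11. The fractions did not overlap, at a difference of -0.27 ± 0.0761 (limma adjusted p = 0.0653, and 0.0303 with array weights).

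The catalytic subunit gene Atp6v1a had a basal mean of 10.65 ± 0.104 and a non-basal mean of 10.72 ± 0.257 (SD over 3 arrays). For its partner Atp6v1b2 these were 9.61 ± 0.0925 and 9.52 ± 0.155. The rotor subunit gene Atp6v1d averaged 9.89 in both fractions, with an interval of the difference from -0.30 to 0.30. Differences of the regulatory subunits Atp6v1c1 and Atp6v1h were 0.16 and -0.19, and those of the proton-carrying ring subunits Atp6v0b and Atp6v0c 0.02 and -0.08. A second probe set of Atp6v0e1, a small membrane subunit, gave 0.02, where the one used gave -0.11. Of the accessory proteins, Atp6ap1 had a difference of 0.03. Atp6ap2, the prorenin receptor, stood at 9.95, 9.92 and 9.62 against 9.69, 9.54 and 9.55, a difference of 0.23 ± 0.108 (limma adjusted p = 0.212) that passed without basal replicate 3 (adjusted p = 0.0366), without that array and non-basal replicate 1 (0.0162) and with array weights (0.0261).

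By sector, the 8 V0 genes had a median difference of -0.30 (-0.14 without non-basal replicate 1, -0.18 without basal replicate 2) and the 12 V1 genes one of -0.02. Tcirg1, a V0 subunit that the symbol rule does not reach, was higher at 0.95 and is not among the 8. The difference was negative for 7 of the 8 V0 genes, and for 6 of them after centring of the arrays. It was negative for 6 of the 12 V1 genes, for 7 after quantile normalization and for 2 after centring, so the V1 genes have no settled direction. An unadjusted p below 0.05 was seen in 3 of the 8 V0 genes, near the 30.0% of all genes. The third besides Atp6v0a1 and Atp6v0d1 was Atp6v0e2, a restricted form of subunit e. It stood at 8.35, 8.30 and 8.77 in the basal and at 9.56, 8.89 and 9.04 in the non-basal arrays, without overlap (difference -0.69 ± 0.212, limma adjusted p = 0.0872). It passed with array weights (limma adjusted p = 0.0209) and without basal replicate 3 and non-basal replicate 1 (0.0137). The other restricted genes were Atp6v1e2, known from testis, at 0.05, Atp6v1g2, known from neurons, at 0.08, and Atp6ap1l at -0.37 (limma adjusted p = 0.126).

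For each of 4 subunits the clear cell form was set against its widely expressed form within each array. The difference between these within-array values shows whether both forms changed alike. For Atp6v0a4 minus Atp6v0a1 it was -0.07, -0.26 and -0.20 in the basal and -0.37, -0.51 and -0.62 in the non-basal arrays. The fractions did not overlap, and the shift, basal minus non-basal, was 0.32. Both forms had negative differences, at -0.32 for Atp6v0a4 and -0.64 for Atp6v0a1, so the shift is no gain of the clear cell form. For Atp6v1g3 minus Atp6v1g1 the within-array values were -1.59, -1.49 and -1.60 against -0.51, -1.17 and -1.41, again without overlap. The shift had the opposite sign, at -0.53. Without non-basal replicate 1 this shift was -0.272. For subunit B (Atp6v1b1 and Atp6v1b2) and subunit d (Atp6v0d2 and Atp6v0d1) the shifts were -0.13 and -0.09, and the fractions overlapped. In a two-sided exact permutation test over arrays the p was 0.1 for subunits a and G, the smallest that 3 against 3 arrays can give, 0.7 for B and 0.8 for d. Adjusted over the 4 pairs it was 0.2, 0.2, 0.8 and 0.8. Thus 0 of the 4 pairs passed, and no pair could have.

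**Figure D2:**
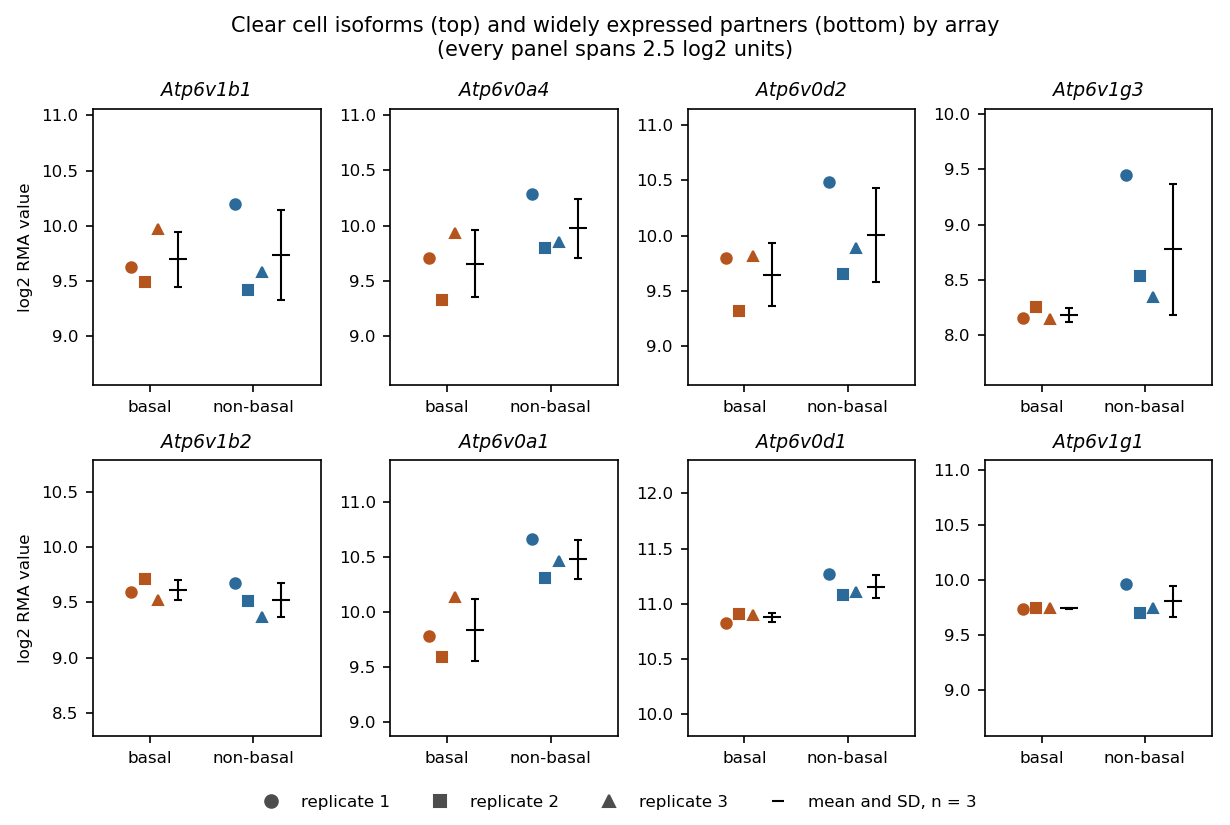
Log2 RMA values in each array for 4 clear cell isoforms (top) and the widely expressed form of the same subunit (bottom), with the mean and SD of 3 arrays beside the points. Non-basal replicate 1, the blue circle, is the highest point of all 4 top panels, at 10.20, 10.28, 10.48 and 9.45.

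Non-basal replicate 1 held the highest of the 3 non-basal values, alone or tied, in 22 of the 23 pump genes, the exception being Atp6v1g2. It did so in 6 of 15 carbonic anhydrase genes and in 45.3% of all genes. Atp6v1e2 and Car6 were such ties. In 17 pump genes it held the highest value of all 6 arrays, as it did in 20.0% of all genes. There a tie with a basal array was not counted. The mean deviation of the clear cell isoforms from each gene's overall mean was 0.644 in non-basal replicate 1, and -0.109 and -0.0437 in the other non-basal arrays. In the basal arrays it was -0.137, -0.362 and 0.00754. The widely expressed subunits deviated by 0.190 in non-basal replicate 1 and by -0.0561 to -0.00687 in the other arrays.

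Other lists moved with that array. The 10 clear cell markers outside the pump deviated by 0.253 there, against -0.0450 and 0.0155 in the other non-basal arrays. Principal cell markers deviated by 0.48, against 0.22 and 0.22. Macrophage markers lay at -0.34, against 0.78 and 0.62, and basal epithelial markers at -1.48, against -0.79 and -0.76. Fibroblast markers lay at 1.30, against 2.28 and 2.14, and lymphocyte markers at 0.46, against 1.29 and 1.18. Endothelial markers lay at 0.83, against 0.63 and 0.73. The part of these lists in the pump values was not tested.

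**Figure D3:**
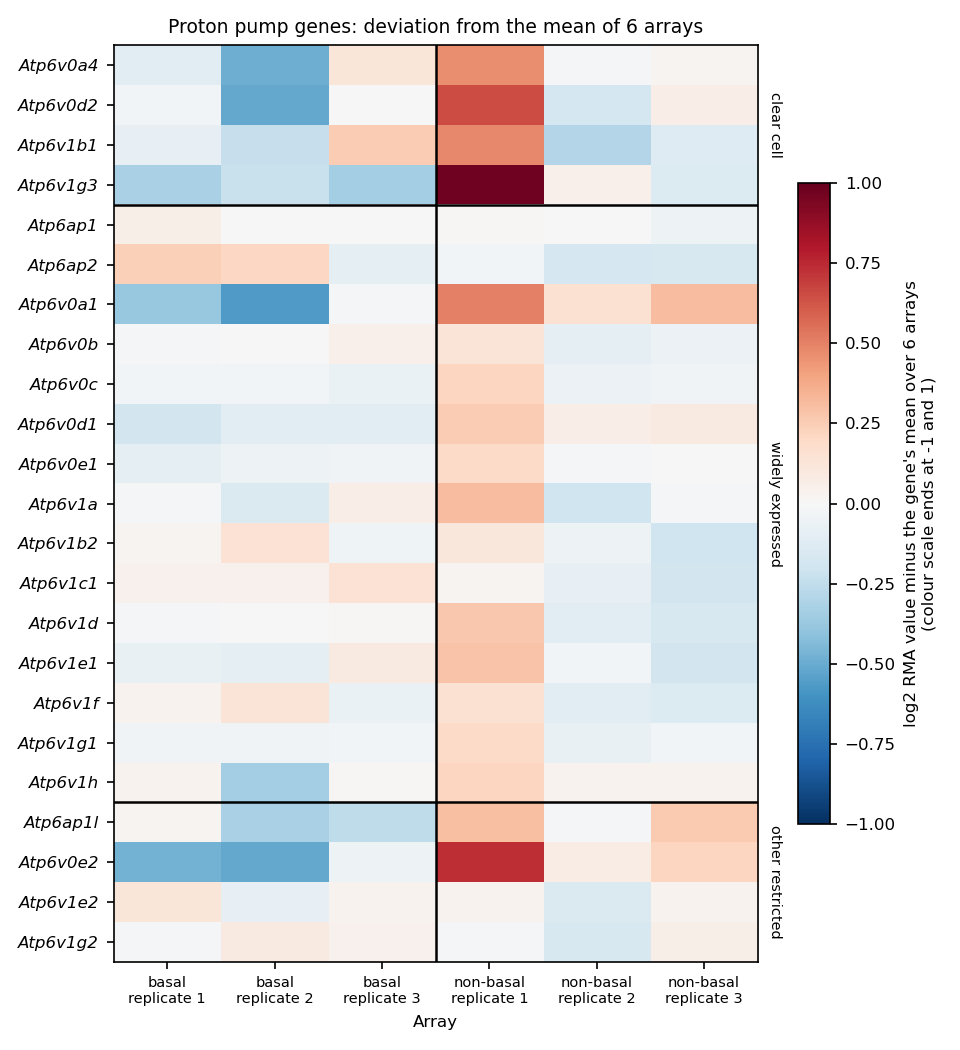
Deviation of each pump gene from its own mean over 6 arrays, in log2 units, with genes as rows and arrays as columns. Lines part the fractions and the groups. The column of non-basal replicate 1 is red in most rows, deepest in Atp6v1g3 and Atp6v0e2.

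Among the carbonic anhydrases, the higher genes were Car12 and Car3. Car12 encodes a transmembrane enzyme with its active site outside the cell. It stood at 11.01, 10.86 and 10.93 in the basal and at 10.39, 9.95 and 9.86 in the non-basal arrays. Basal values lay close together and above every non-basal one, a difference of 0.87 ± 0.149 (SE; limma adjusted p = 0.0147). The call was kept without basal replicate 3 or non-basal replicate 1. It was lost without any 1 of the other 4 arrays, at a limma adjusted p of 0.0715 (basal replicate 1 out), 0.0637 (basal replicate 2 out), 0.0669 (non-basal replicate 2 out) and 0.0635 (non-basal replicate 3 out). In the 4 fits that lost the call, 5.88% to 6.94% of all genes were called, against 14.9% with all 6 arrays. Over all 6 fits with 1 array left out the difference of Car12 stayed between 0.76 and 1.03.

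Car3 encodes a cytosolic enzyme of low activity known from muscle and fat. It stood at 8.46, 8.54 and 7.96 in the basal and at 7.33, 7.64 and 7.52 in the non-basal arrays, without overlap (0.82 ± 0.174, limma adjusted p = 0.0291). The call was kept in 1 of 6 fits with 1 array left out, that without basal replicate 3 (adjusted p = 0.00645). It was lost without any 1 of the other 5 arrays (basal replicates 1 and 2, and the 3 non-basal ones), at a limma adjusted p between 0.0708 and 0.115. Of 10 adipocyte markers 3 were lower, 0 were higher and 7 did not pass. Of 6 skeletal muscle markers 1 was lower, 0 were higher and 5 did not pass. Their part in the Car3 value was not tested.

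Car14 and Car11 were the lower genes. Car14 encodes a transmembrane enzyme facing outward, like Car12. It stood at 5.71, 5.48 and 5.89 in the basal and at 6.87, 6.56 and 6.49 in the non-basal arrays. The groups were apart by more than their spread (-0.94 ± 0.147, limma adjusted p = 0.0108), and the call was lost only without basal replicate 1 (adjusted p = 0.0543) among the fits with 1 array left out. The level was low: the fraction means of 5.70 (basal) and 6.64 (non-basal) lay below or near the array medians of 6.63 to 6.70.

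Car11 encodes a carbonic anhydrase-related protein without enzyme activity, known from brain. It stood at 7.12, 7.60 and 7.90 in the basal and at 8.46, 8.94 and 8.85 in the non-basal arrays, again without overlap. The difference of -1.21 ± 0.226 (limma adjusted p = 0.0195) was the largest in size among the 38 genes. It was not called when basal replicate 2 was left out (limma adjusted p = 0.0822), nor without non-basal replicate 2 (0.0801) or non-basal replicate 3 (0.0950). Fibroblast markers moved with Car11 across arrays: their mean deviation was -2.69, -2.16 and -0.88 in the basal and 1.30, 2.28 and 2.14 in the non-basal arrays. Lymphocyte and smooth muscle markers followed the same order of arrays as Car11, so the pattern is not particular to fibroblast markers. Endothelial and macrophage markers did not follow that order. The part of these lists in the Car11 value was not tested.

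**Figure D4:**
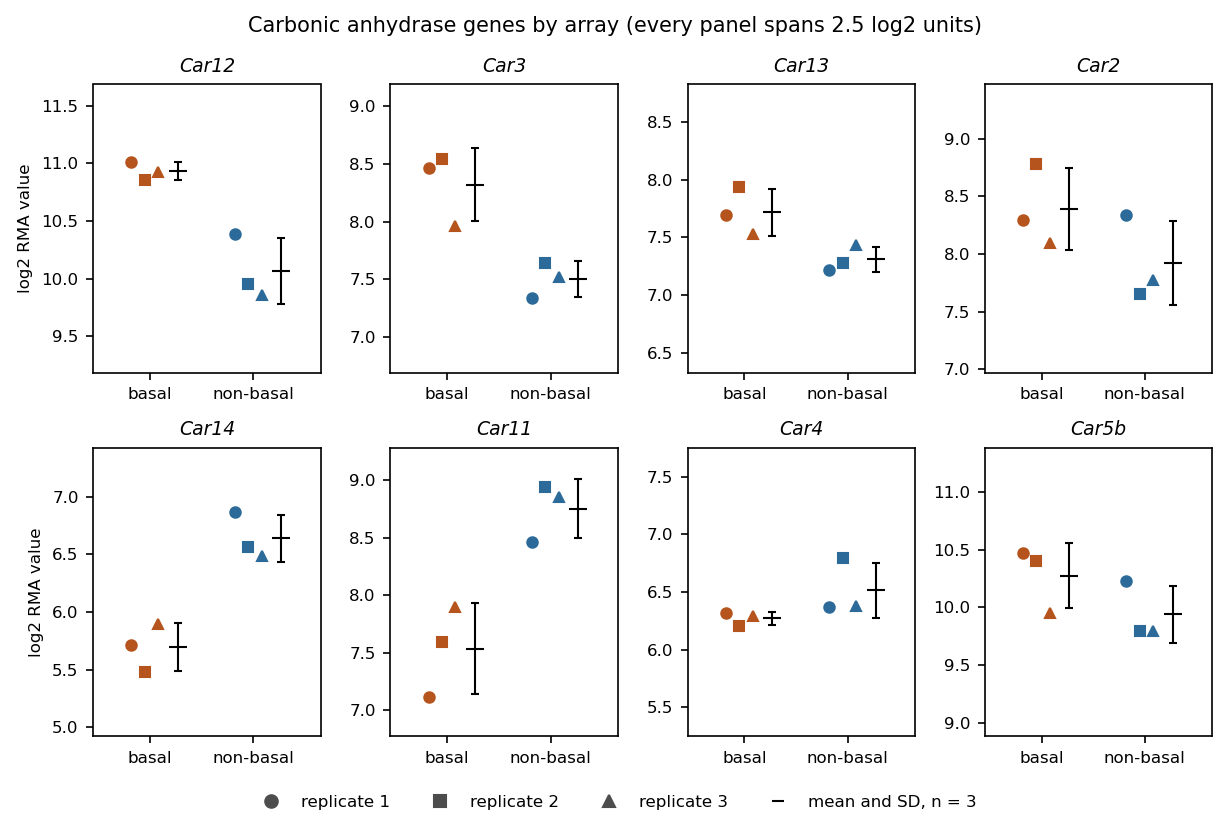
Log2 RMA values in each array for 8 carbonic anhydrase genes, with the mean and SD of 3 arrays beside the points. Car12 and Car3 lie higher in the basal fraction and Car14 and Car11 lower, while Car2 and Car5b overlap between the fractions.

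The cytosolic enzymes all had positive differences, with a median of 0.41, which was 0.269 without basal replicate 2. Of the 5, 1 was called, where 14.9% of all genes were. All 5 stayed positive after quantile normalization and after centring, whereas Car1 turned negative in 3 of 6 fits with 1 array left out (basal replicate 1, basal replicate 2, and non-basal replicate 1). Car13 stood at 7.69, 7.93 and 7.53 in the basal and at 7.22, 7.28 and 7.43 in the non-basal arrays. These did not overlap, and the difference of 0.41 ± 0.122 did not pass (limma adjusted p = 0.0802). It passed without basal replicate 3 (limma adjusted p = 0.0405), after quantile normalization (0.0399), after centring (0.0409) and with array weights (0.0294). Car2, the fast cytosolic enzyme of acid-secreting cells and red blood cells, stood at 8.29, 8.78 and 8.09 against 8.33, 7.66 and 7.78. The fractions overlapped through non-basal replicate 1, and the difference of 0.47 had an interval from -0.13 to 1.06. It was 0.269 without basal replicate 2, and it passed with array weights (limma adjusted p = 0.0491). Car1, a red blood cell enzyme, had a difference of 0.02 (-0.22 to 0.26), and Car7, known from brain, one of 0.13. Of 6 erythroid markers 1 was lower, the beta-globin gene Hbb-b1, and none was higher.

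The mitochondrial enzymes Car5a and Car5b had differences of 0.19 and 0.34, and neither passed in the fit to all arrays. That of Car5a was 0.0821 without basal replicate 3. Car5b stood at 10.47, 10.40 and 9.95 against 10.23, 9.80 and 9.80, with overlap. It passed with array weights (0.53, limma adjusted p = 0.0270) and without basal replicate 3 and non-basal replicate 1 (0.64, adjusted p = 0.00766). Among the other membrane-bound or secreted enzymes, Car4 is anchored by a lipid to the outer face of the cell membrane. It stood at 6.32, 6.21 and 6.29 in the basal and at 6.37, 6.79 and 6.38 in the non-basal arrays. The fractions did not overlap, but by a narrow margin, and the difference was -0.24 (limma adjusted p = 0.269). Car9, a transmembrane enzyme induced by low oxygen, had a difference of 0.22 (adjusted p = 0.231). The secreted Car6 and the lipid-anchored Car15 had differences of 0.06 and -0.04. Car6 had the same value of 6.51 in 4 arrays, and the inactive Car8 the same value of 5.61 in 5 arrays. Such equal values occurred in 10 of the 38 genes and in 35.3% of all genes.

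The other genes of pump function were taken from lists. The list of pump assembly and regulation also holds the subunit gene Tcirg1. Of its 13 genes 2 were higher and 0 lower, which is 15.4% called, near the 14.9% of all genes. One was Tcirg1, the a3 form of subunit a known from osteoclasts and lysosomes, which the symbol rule does not reach. It stood at 9.32, 9.12 and 9.21 in the basal and at 7.98, 8.54 and 8.30 in the non-basal arrays, a difference of 0.95 ± 0.149 (limma adjusted p = 0.0113). The call was lost when basal replicate 1 (limma adjusted p = 0.0588), basal replicate 2 (0.0505) or non-basal replicate 3 (0.0607) was left out. Of the 3 measured forms of subunit a, Tcirg1 was thus higher in the basal fraction, and Atp6v0a1 and Atp6v0a4 had negative differences that did not pass.

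The other was Ncoa7, a protein of the TLDc family that binds the pump, at 8.45, 8.45 and 8.24 against 7.22, 7.51 and 7.23. Its difference of 1.06 ± 0.111 (limma adjusted p = 0.00361) was called in all 6 fits with 1 array left out. Macrophages are also known to express Tcirg1. The 12 macrophage markers had a median difference of -0.55, with 3 lower, 0 higher and 9 that did not pass. In the non-basal arrays the macrophage markers deviated by -0.344, 0.777 and 0.617, the same order as Tcirg1. In the basal arrays they deviated by -0.470, -0.134 and -0.445, the reverse of the order of Tcirg1. Their part in the Tcirg1 value was not tested.

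Of 18 acid-base partners of luminal acidification 1 was higher and 0 were lower, where 7.71% and 7.14% of all genes were. Clcn3, a chloride and proton exchanger of endosomes, was higher by 0.80 ± 0.159 (limma adjusted p = 0.0235). Its call was kept without basal replicate 3 or non-basal replicate 1. It was lost when basal replicate 1 (limma adjusted p = 0.0949), basal replicate 2 (0.0957), non-basal replicate 2 (0.0920) or non-basal replicate 3 (0.0870) was left out. Foxi1, the forkhead factor of narrow and clear cells, stood at 10.42, 10.20 and 10.74 in the basal and at 10.47, 10.05 and 10.30 in the non-basal arrays. They overlapped (difference 0.18, interval -0.23 to 0.59), and the difference was 0.0363 without basal replicate 3, 0.0708 without non-basal replicate 2, 0.277 without non-basal replicate 1, and 0.306 when basal replicate 2 was left out. Clcn5, Slc26a3 and Bsnd had differences of -0.73, -0.62 and -0.44, and none of these passed. Of 16 lysosome genes 0 passed in limma, although 8 had an unadjusted p below 0.05, as 30.0% of all genes did. The median difference of the lysosome genes was 0.04.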

How the data were processed

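Per the submitters' processing notes, the authors used RMA and Affymetrix Expression Console, and the table they deposited holds 1 log2 value per probe set and array. Their version, probe set library and genome build are not given in the sources used here. RMA forces distributions to match, which removes a shift common to most genes, and it compresses differences of dim probe sets.

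Probe sets with 1 symbol in the platform annotation (18511 of 36685) were used, 1 per gene by the highest mean over 6 arrays, giving 18166 genes. A fraction was taken from the sample title. Differences were fitted by limma 3.58.1 (lmFit, then eBayes; R 4.3.3) with fraction as the only term, two-sided, and adjusted over all genes by Benjamini-Hochberg at 0.05. SDs are over 3 arrays, and SEs and 95% intervals are the moderated ones of limma. In simulated data for 18166 genes, 50 genes were changed at each of the sizes 0.5, 1, 2 and 3. There 72% of genes changed by 1 on the log2 scale and 30% of those changed by 0.5 were called. In the data themselves 14.9% of genes were called. The adjusted cutoff depends on the share of changed genes, so these rates do not give the sensitivity of this fit.

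All 38 genes may be named. From other lists came up to 4 genes with the smallest p, Tcirg1 and Foxi1. Hbb-b1 falls under that rule. Members and lists were chosen with earlier results of these data known. Promoter windows came from RefSeq (GRCr8), matched by Entrez identifier for 27 of the 38 genes. The alternatives were the replicate block, quantile normalization, median centring, filters at a fraction mean of 5 or 7, array weights, a robust spread with an intensity trend, averaging over the probe sets of each gene, and arrays left out singly or, for basal replicate 3 and non-basal replicate 1, together.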

Additional observations from a re-analysis of the deposited data

How the results depend on the processing

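Outside the fits with 1 array left out, every alternative that tested Car12, Car3, Car14 or Car11 kept its call. The planned pair of Atp6v1c2 and Atp6v1c1 was not run, since Atp6v1c2 was not analysed here. Of 15 alternatives, the filter at a fraction mean of 7 left 27 of the 38 genes, without Car14. Array weights gave 6 genes higher (Car12, Car3, Car13, Car2, Car5b and Atp6ap2) and 5 lower (Car14, Car11, Atp6v0a1, Atp6v0d1 and Atp6v0e2), with 28.6% of all genes called in either direction. Leaving out both basal replicate 3 and non-basal replicate 1 gave 4 and 4, with Atp6ap2 and Car5b gained as higher and Atp6v0a1 and Atp6v0e2 as lower, with 25.4% of all genes called. With 1 array left out, 0 to 4 genes were higher and 1 to 3 lower, with 5.88% to 19.5% of all genes called. The median of the carbonic anhydrases was 0.13, but 0.21 after quantile normalization, 0.23 after centring, 0.41 with the filter at 7 and 0.0659 to 0.19 with 1 array left out. That of the widely expressed subunits was -0.0903 to 0.0721 with 1 array left out. The shift of subunit d was 0.0157 without the same pair of arrays, and -0.23 to 0.0918 with 1 array left out. That of subunit G was -0.72 to -0.27 with 1 array left out and -0.25 without that pair, and that of subunit B was -0.31 to 0.0273. Causes were not tested.

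Differences near 0 changed sign, and none of these passed. After quantile normalization the differences were Atp6ap1 at -0.00972, Atp6v1d at -0.0334, Car15 at 0.0228 and Car8 at 0.0209. After centring they were Atp6v0c at 0.0193, Atp6v1a at 0.0320, Atp6v1b1 at 0.0609, Atp6v1e1 at 0.0468, Atp6v1g1 at 0.0356, Car15 at 0.0592 and Car8 at 0.0759. With array weights they were Atp6v1b1 at 0.0234 and Atp6v1e1 at 0.00301. Without that pair of arrays they were Atp6v0c at 0.0206, Atp6v1a at 0.0234, Atp6v1b1 at 0.0555, Atp6v1e1 at 0.0215 and Atp6v1g1 at 0.0152. With 1 array left out the ranges were -0.0239 to 0.0917 for Atp6v0b, -0.13 to 0.00780 for Atp6v0c, -0.18 to 0.0721 for Atp6v1a, -0.19 to 0.19 for Atp6v1b1, -0.0792 to 0.13 for Atp6v1d, -0.16 to 0.0781 for Atp6v1e1, -0.0118 to 0.10 for Atp6v1e2, -0.11 to 0.0175 for Atp6v1g1 and -0.0361 to 0.10 for Car1.

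With the replicate number as a block, Car12, Car3, Car11 and Car14 were called as before, and 982 genes in all were higher and 1027 lower, against 1401 and 1297 without it. The deviations of same-numbered arrays correlated at 0.0312, 0.0383 and 0.0278 across genes, too weakly to pair them, though each lay above every correlation of differently numbered arrays, a hint from the data only. Of all calls 51.9% were higher, and 64.8% after centring, which moved the median of all genes from 0.00343 to 0.102.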
